A study of Mus musculus with 6 samples.

Results

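tRNA-Cys-GCA is the cytosolic tRNA that reads cysteine codons with the anticodon GCA. Its copies were chosen by name, as every tRNA reference whose name begins with Cys-GCA, which gave 19 of the 190 references listed in any of the 6 libraries. The family was picked out because its coverage differed between the genotypes, so the coverage of its copies is given here as a description, without a test, and only where reads begin and end and which bases they hold were tested. The libraries were made from total RNA of whole mouse brain. Wild-type brain (WT) was set against brain of mice labelled as a knockout of TRMT1L (KO), with 3 biological replicates in each group. Age, sex, strain and the knockout allele are not given in the sources used here. The Trmt1l transcript was not analysed, so the genotype labels were not checked, and tables that hold only tRNA references cannot check the tissue label against brain markers.

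TRMT1L is a paralogue of TRMT1, the methyltransferase that makes dimethylguanosine at position 26 of many tRNAs. A tRNA can be cut in its anticodon loop, by angiogenin under stress for example, into a 5′ fragment that holds the D arm and a 3′ fragment that ends in CCA. The 5′ fragments of tRNA-Cys and tRNA-Ala begin with a run of guanosines and are known as inhibitors of translation initiation. Reverse transcription reads the RNA from its 3′ end, so methylated bases that block it shorten reads at their 5′ side.

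The sequences below were read from the reference bases of the tables and show the difference that separates the 2 kinds of copy. Positions count from 1 at the 5′ end. The capitals near the middle mark the anticodon, the single capital before it marks position 16, the capital at the very start of Cys-GCA-17 marks position 1, and the capitals at the 3′ end mark the added CCA.
Cys-GCA-3, positions 1 to 53: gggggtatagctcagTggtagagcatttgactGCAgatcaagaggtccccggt
Cys-GCA-7, positions 1 to 53: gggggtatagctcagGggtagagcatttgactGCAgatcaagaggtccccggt
Cys-GCA-17, positions 1 to 46: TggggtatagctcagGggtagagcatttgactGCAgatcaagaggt
Cys-GCA-11, positions 1 to 23: gggggtatagctcagGggtagag
Cys-GCA-7, positions 58 to 75: atccgggtgccccctCCA

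Over the positions listed on both, the copies numbered 1 to 3 had the same bases, and 15 other copies differed from Cys-GCA-1 by T16G. The first 3 are called the T16 copies below and the 15 others the G16 copies. Cys-GCA-17 differed from Cys-GCA-4 by G1T alone. Cys-GCA-21 was not listed at position 16. Outside the family, 63 references were listed at every position from 1 to 33, and the closest of them, Ala-AGC-1, differed from Cys-GCA-7 at 8 of these 33 bases. The anticodon lies at positions 33 to 35, which are 34 to 36 in canonical tRNA numbering, so beyond the D loop the canonical number is higher by 1. RefSeq (GRCm38.p6) lists 57 mouse genes for this tRNA, 49 of them on a single chromosome. The references carry no coordinates and were not paired with these genes.

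The tables are counts per reference position, and 3 properties of them bear on every value. Coverage stopped at about 8000 reads, with a highest value of 8032, so a value there is a lower bound. No position under 30 reads was listed, so an unlisted position means fewer than 30 reads and not 0. Reads that match several copies were counted on each: Cys-GCA-6 had the same counts as Cys-GCA-4 throughout, which leaves 18 distinct references, and within 5% of each other these formed 11 groups. Wild-type libraries held 6151209 to 6295061 base calls over all references and knockout libraries 7981301 to 8797395.

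In both genotypes nearly all Cys-GCA coverage lay on the 5′ part, positions 1 to 33. In the knockout these positions had several times more reads on every G16 copy listed in all libraries, while the 3′ part, from position 40 on, was low in both genotypes. On Cys-GCA-4 the highest coverage of the 5′ part was 252, 166 and 244 reads in the wild-type libraries and 2134, 2060 and 2593 reads in the knockout libraries. No knockout library came near the wild-type range. Per 1000000 base calls the mean was 35.4 ± 7.9 (SD, n = 3) reads for wild type and 270.0 ± 21.4 (SD, n = 3) for the knockout, a ratio of 7.63. In whole brain, a change in the share of a cell type and a change of RNA per cell cannot be told apart.

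**Figure D1:**
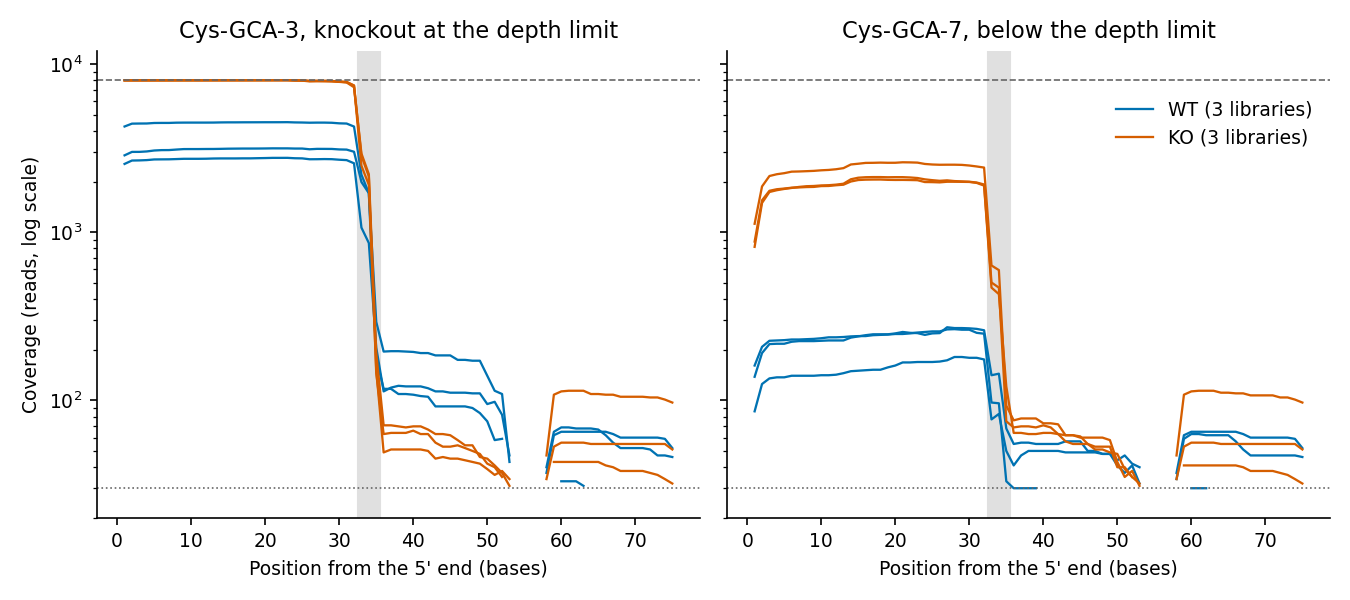
Coverage in reads (log scale) at each position from the 5′ end, with 3 lines per genotype; the dashed line is the limit near 8000 reads, the dotted line the lowest listed coverage of 30, and the grey band the anticodon at positions 33 to 35. On Cys-GCA-7 the knockout lines lie far above the wild-type lines up to position 32. From position 58 on, knockout replicates 1 and 2 lie among the wild-type lines and replicate 3 above them. No line is drawn at positions 54 to 57, where every library had under 30 reads.

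The other G16 copies showed the same difference at different depths. Cys-GCA-17, which begins with another base, had 134, 89 and 86 reads in wild type and 1381, 1247 and 1534 in the knockout. Cys-GCA-7, a G16 copy listed at both ends of the molecule, had 272, 181 and 265 reads in wild type and 2127, 2057 and 2605 in the knockout. Cys-GCA-8, which was listed only from position 7 on, had 71, 45 and 45 reads in wild type and 342, 274 and 354 in the knockout. The counts of these copies come largely from the same reads and are not separate measurements. Cys-GCA-9, Cys-GCA-12, Cys-GCA-14 and Cys-GCA-24 lay within 5% of each other at 152 to 249 reads in wild type and 2053 to 2591 in the knockout.

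Some G16 copies passed the floor of 30 reads almost only in the knockout, and their wild-type counts under it are not known. Cys-GCA-11 had 80, 84 and 78 reads in the knockout and fewer than 30 in each wild-type library. Its coverage was the same from position 1 to position 17 and had gone down to 42, 53 and 49 at position 23, the last one listed, so it holds short reads that begin at the first base. Cys-GCA-19 had 239, 198 and 271 reads in the knockout and fewer than 30 in each wild-type library, all between positions 11 and 34. Of its 213, 170 and 243 reads with a start at a listed position, 91.5%, 88.8% and 86.0% began at positions 13 to 16. These were 195, 151 and 209 reads, against 205, 151 and 214 on Cys-GCA-4 in the same libraries, so they are largely shared reads. On Cys-GCA-4 the wild-type libraries had 17, 9 and 4 such starts. Cys-GCA-15 had 403, 313 and 460 reads in the knockout, and in wild type it was listed in replicate 1 alone, at 35 reads. Cys-GCA-16 followed the same pattern, at 255, 194 and 287 reads in the knockout and 43 in wild-type replicate 1. Cys-GCA-21 was hardly seen, with a highest 5′ coverage of 37 reads in knockout replicate 3 and under 30 elsewhere.

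The T16 copies were the most abundant in wild type, and in the knockout they ran into the depth limit. Cys-GCA-3 had 3153, 2768 and 4512 reads in wild type against 8018, 8016 and 8020 in the knockout. Cys-GCA-1 and Cys-GCA-2 were within 5% of it. Every knockout value sits at the limit, so how far these copies were above wild type is not known, and whether they differed from the G16 copies in this respect cannot be told apart from the limit. Among reads that cover position 16 on Cys-GCA-1 or Cys-GCA-4, the share with the G16 base was 7.49% (Wilson 95% interval 6.64% to 8.44%), 5.3% (4.53% to 6.18%) and 5.13% (4.54% to 5.8%) in the wild-type libraries. In the knockout libraries it was 21.0%, 20.45% and 24.39%, which are upper bounds because the T16 reads were capped.

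Set among all references, the 5′ parts of the G16 copies had the highest fold changes. In edgeR's quasi-likelihood fit with TMM normalization over 234 parts of 145 references, 11 Cys-GCA 5′ parts below the limit could be fitted, and their log2 fold changes (knockout over wild type) ran from 2.12 to 3.29 with a median of 2.88. The median over all 120 5′ parts was 0.14. The 3 T16 parts had fitted values of 0.73 to 0.75, which rest on knockout coverages held at the limit. All 14 Cys-GCA 5′ parts also had every knockout coverage above every wild-type coverage, as did 66.7% of all 5′ parts. Since this contrast chose the family, nothing is drawn from this count. Cys-GCA-17 was highest at 3.29 (SE 0.237), Cys-GCA-4 stood at 2.88 (SE 0.228), Cys-GCA-7 at 2.77 (SE 0.226) and Cys-GCA-8 at 2.12 (SE 0.263). Outside the family the highest 5′ part was that of Ala-TGC-6, at 1.26 (SE 0.236).

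**Figure D2:**
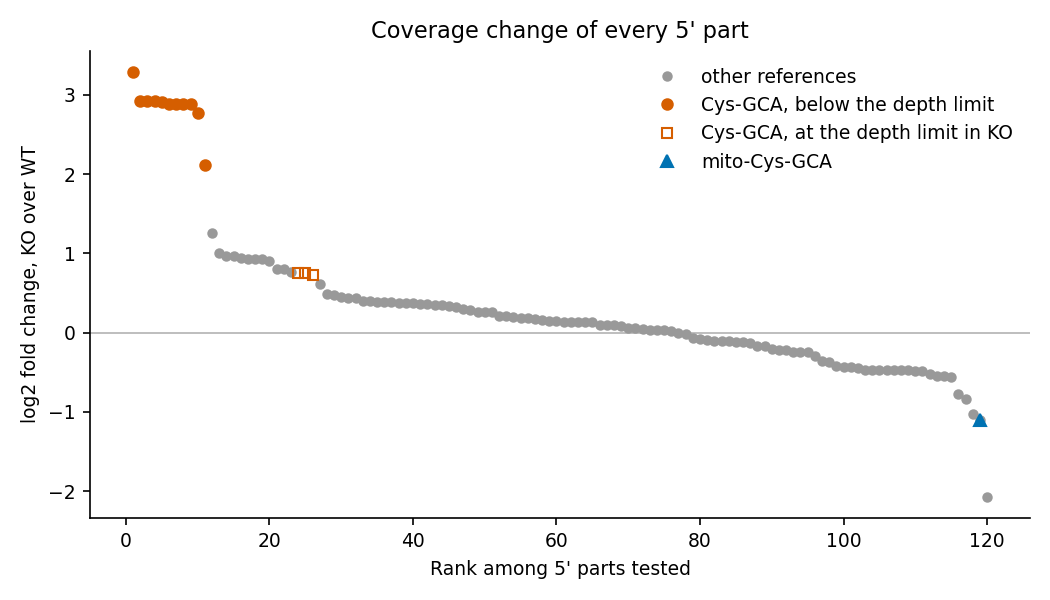
The log2 fold change of coverage (knockout over wild type) of each 5′ part, ranked from the highest; filled orange circles are Cys-GCA copies below the depth limit, open orange squares those at it in the knockout, the blue triangle is mito-Cys-GCA and grey circles are the other references. The 11 Cys-GCA copies below the limit hold the first 11 ranks, between 2.12 and 3.29, and the highest grey circle is at 1.26.

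Coverage of the 3′ part was low in every library. On Cys-GCA-5 it was 63, 50 and 32 reads in wild type and 44, 60 and 107 in the knockout. On Cys-GCA-7 it was 65, 63 and 30 reads in wild type and 71, 64 and 114 in the knockout. The groups overlapped on both copies, and knockout replicate 3 was the highest library on each. Their fitted log2 fold changes were 0.07 (SE 0.325) and 0.19 (SE 0.305). On Cys-GCA-8 the 3′ part had 57, 48 and under 30 reads in wild type and 68, 64 and 69 in the knockout, so each knockout library was above each wild-type library in reads. Per 1000000 base calls it stood at 9.27 and 7.63 in wild-type replicates 1 and 2 and at 8.2, 8.02 and 7.84 in the knockout, where the groups overlap. The difference between the log2 fold changes of the 2 parts of a copy was 2.81 for Cys-GCA-5 and 2.58 for Cys-GCA-7, the first and second among 75 references below the limit with both parts fitted. The third was Tyr-GTA-3 at 1.66, and the median outside the family was 0.13.

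The 3′ part of the T16 copies went the other way on Cys-GCA-3, with 194, 121 and 108 reads in wild type and 66, 70 and 114 in the knockout. The fit gave a log2 fold change of −1.22 (SE 0.286), while Cys-GCA-2 stood at −0.19 (SE 0.321) with 77, 50 and 45 reads against 42, 60 and 107. The wild-type reads on Cys-GCA-3 lay mostly at positions 36 to 51. There coverage at position 40 was 194, 121 and 108 in wild type and 66, 70 and 51 in the knockout. At position 61 it was 65, 69 and 33 in wild type and 43, 56 and 114 in the knockout, and the groups overlapped. Reads running from a capped 5′ part through the anticodon fall under the same limit, so the lower coverage past the anticodon in the knockout cannot be told apart from it.

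**Figure D3:**
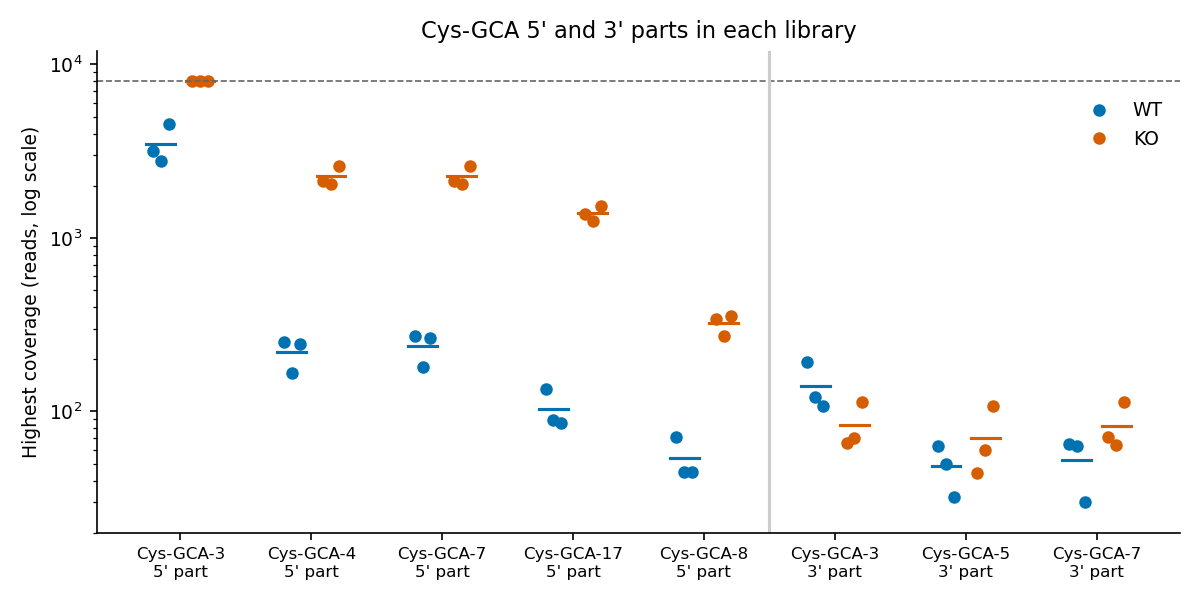
Highest coverage in reads (log scale) of each part in each library, with a short line at the mean of 3 libraries; positions 1 to 33 form the 5′ part and positions from 40 on the 3′ part, and the dashed line is the limit near 8000. The 5′ parts of Cys-GCA-4, Cys-GCA-7, Cys-GCA-17 and Cys-GCA-8 show no overlap of the groups, and the 3′ parts of Cys-GCA-5 and Cys-GCA-7 overlap.

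The reads from the 3′ end had a sharp 5′ border, and whether they come from RNA fragments or from stopped reverse transcription was not tested. Positions 54 to 57 were not listed on any Cys-GCA copy in any library. On Cys-GCA-7 coverage was listed again from position 58 in 4 libraries, from position 59 in knockout replicate 1 and from position 60 in wild-type replicate 3. In those 4 libraries it was 37 and 34 reads in wild type and 34 and 47 in the knockout at position 58, and 62, 59, 53 and 108 at position 59. Position 57 is the canonical position 58, where many tRNAs carry 1-methyladenosine, a base that blocks reverse transcription. At position 61 of Cys-GCA-7 it was 65, 63 and 30 reads in wild type and 41, 56 and 114 in the knockout. At position 75, the last base of CCA, Cys-GCA-7 still had 52 and 46 reads in wild-type replicates 1 and 2, under 30 in replicate 3, and 32, 51 and 97 in the knockout, so most of these reads reached the mature 3′ end. The same counts at position 75 stood on Cys-GCA-2, Cys-GCA-3 and Cys-GCA-5, so the reads do not tell the copies apart there.

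Coverage past the anticodon was low. On Cys-GCA-7, coverage at position 36 as a percentage of that at position 32 was 21.07%, 23.43% and 12.05% in wild type and 3.59%, 3.38% and 3.14% in the knockout. In reads this was 55, 41 and 30 in wild type and 69, 64 and 76 in the knockout. Cys-GCA-8, with far fewer 5′ reads, had the same 55, 41 and 30 wild-type reads at position 36, so they are largely reads shared between copies and need not run through from position 32. On Cys-GCA-4, position 36 had under 30 reads in each wild-type library and 48, 31 and 46 in the knockout. Per 1000000 base calls the reads at position 36 came to 8.94, 6.51 and 4.78 in wild type and 8.32, 8.02 and 8.64 in the knockout, and the groups overlapped. At position 32 they came to 42.4, 27.8 and 39.7 in wild type and 232, 237 and 275 in the knockout.

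Along the 5′ part the ratio of knockout to wild type was not constant. On Cys-GCA-4 the ratio of mean reads, not scaled for library size, was 7.3 at position 1, 9.35 at position 2, 10.54 at position 20 and 9.81 at position 32, and it fell to 5.93 at position 33 and 5.53 at position 34.

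The first bases of the reads were counted next. On Cys-GCA-4, reads beginning at position 1 made up 52.2%, 51.2% and 66.3% of all reads beginning at positions 1 to 33 in wild type and 38.2%, 42.6% and 43.1% in the knockout. Reads beginning at position 2 made up 19.6%, 23.2% and 19.3% in wild type and 31.4%, 32.2% and 28.7% in the knockout. The groups overlapped at neither. Reads beginning at positions 13 to 16, in and just before the D loop, made up 6.3%, 5.4% and 1.6% in wild type and 9.5%, 7.3% and 8.2% in the knockout. Reads beginning at positions 17 to 33 made up 9.3%, 10.7% and 2.5% in wild type and 1.2%, 1.2% and 1.4% in the knockout. They do not cover position 16 and cannot be given to either kind of copy: in wild type the same 25, 18 and 6 reads were counted on Cys-GCA-1. Of the reads beginning at positions 1 to 16 alone, 57.6%, 57.3% and 67.9% began at position 1 in wild type and 38.7%, 43.1% and 43.7% in the knockout, still without overlap. These rest on 150 to 245 wild-type and 2052 to 2572 knockout reads.

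**Figure D4:**
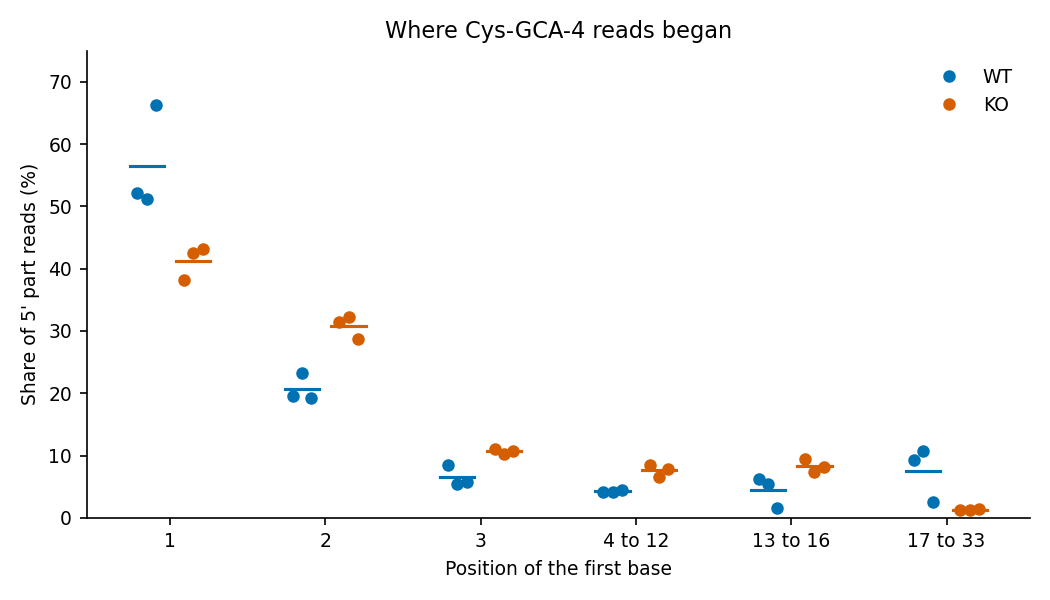
Share in percent of Cys-GCA-4 reads of the 5′ part that began at each position or range of positions, one point per library and a short line at the mean of 3 libraries. Wild type lies higher at position 1 (51.2% to 66.3% against 38.2% to 43.1%) and at positions 17 to 33, where reads are shared with the T16 copies, and the knockout lies higher at positions 2, 3, 4 to 12 and 13 to 16.

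The read starts were tested site by site, as the share of reads covering a position that begin there, by a quasi-binomial test with limma-moderated dispersion over 1042 sites of all references. At position 2 of Cys-GCA-4 this share was 27.3%, 31.2% and 22.6% in wild type and 45.1%, 43.1% and 39.99% in the knockout. The knockout mean was higher by 15.7 percentage points, more than the spread between replicates, with an unadjusted p of 0.00358 and an adjusted p of 0.271. At position 3 the share was 10.5%, 6.67% and 6.2% in wild type and 13.7%, 11.99% and 12.9% in the knockout (adjusted p = 0.619). At position 14 it was 3.77%, 2.69% and 0.833% against 5.89%, 4.28% and 4.9% (adjusted p = 0.655). On Cys-GCA-7, the share of reads beginning at position 27, in the anticodon stem, was lower in the knockout, at 7.72%, 2.31% and 3.03% in wild type and 0.688%, 0.952% and 0.476% in the knockout (adjusted p = 0.271). The reads themselves numbered 21, 4 and 8 in wild type and 14, 19 and 12 in the knockout, over a coverage that was many times higher there, and they too lie past position 16.

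Of the 73 read-start sites on the 9 G16 copies that passed the minima, none was past the adjusted threshold and 19 had an unadjusted p under 0.05, as did 7.39% of all sites. At 46 of them the groups did not overlap, against 14.2% of all sites tested. The copies repeat the same reads, so these 73 sites stand for far fewer measurements. Limma on the arcsine square root of the shares called none of these 73 either. At positions 3 and 4 of Cys-GCA-4 the base quality was lower in knockout replicates 1 and 2 than in wild type, and close to it in replicate 3. The median quality score was 32 and 33 in each wild-type library. It was 26 and 26 in knockout replicate 1, 26.5 and 28 in replicate 2 and 32 and 32 in replicate 3. At position 5 the score was 36 in each wild-type library and 29, 29 and 32 in the knockout. Its part in the start shares was not tested.

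On the T16 copies, position 2 was past the threshold on all 3, with an adjusted p of 9.98e-06 (quasi-binomial test with limma-moderated dispersion, 0.384% of all sites called). On Cys-GCA-1 the share there was 4.6%, 4.54% and 3.82% in wild type and 0.0125% in each knockout library, which is 1 read of about 8000. The knockout coverage was at 8000 from position 1, and almost no read could be added behind it, so this difference cannot be told apart from the depth limit. With any 1 wild-type library left out, these sites fell under the pooled rate of 1% and were not tested.

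In wild type, where no Cys-GCA copy reached the limit, the 2 kinds of copy could be compared within a library. Reads beginning at position 1 made up 93.2%, 93.9% and 95.3% of the 5′ reads on Cys-GCA-1, against 52.2%, 51.2% and 66.3% on Cys-GCA-4. Reads beginning at position 3 made up 0.0%, 0.0% and 0.1% on Cys-GCA-1 and 8.5%, 5.4% and 5.8% on Cys-GCA-4. The order was the same in all 3 libraries, and the Wilson 95% intervals at position 1 did not meet (92.3% to 94.0% against 46.3% to 58.1% in replicate 1). The reads with the T16 base were thus mostly aligned from the first base, and those with the G16 base often only from a later one. Reads beginning at position 2 numbered 53, 39 and 47 both on Cys-GCA-4 and on Cys-GCA-17, which differ at position 1. Whether such reads lacked a base or had a first base left out of the alignment was not tested.

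The 5′ reads ended in the anticodon loop, at the same bases in both genotypes. Of the Cys-GCA-4 reads that ended at positions 25 to 40, 51.9%, 71.7% and 69.7% ended at position 32 in wild type and 70.8%, 72.6% and 72.1% in the knockout. Position 32 is the uridine at canonical position 33, the base just before the anticodon, so a read from the first base to it has 32 bases. Reads beginning past position 16 are counted in the end shares of both kinds of copy. The second main end was position 34, the middle base of the anticodon, with 34.2%, 23.2% and 20.2% in wild type and 19.7%, 15.6% and 20.2% in the knockout. Position 33 between them held only 0.4%, 0.0% and 0.5% in wild type and 1.7%, 2.0% and 1.6% in the knockout. Unlisted positions were taken as 29 reads, which on Cys-GCA-4 includes position 35 in wild-type replicates 2 and 3. In these libraries the counts of ends at position 34, 32 and 44 reads, are thus lower bounds. Their shares at position 32 are upper bounds, so whether the groups overlap at positions 32 and 34 cannot be told.

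On the T16 copies the same 2 ends were the main ones. Of the Cys-GCA-1 reads, 34.2%, 56.6% and 46.6% ended at position 32 in wild type and 58%, 54.6% and 62.2% in the knockout. Position 34 held 47.4%, 24.7% and 34.7% in wild type and 25.2%, 25.5% and 22.1% in the knockout, and wild-type replicate 1 was the only library with more ends there than at position 32. Position 33 held 9.5%, 7.9% and 11.2% in wild type and 8.8%, 9.1% and 7.2% in the knockout. In each of the 6 libraries this was well above the share on Cys-GCA-4, which did not exceed 2.0%.

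**Figure D5:**
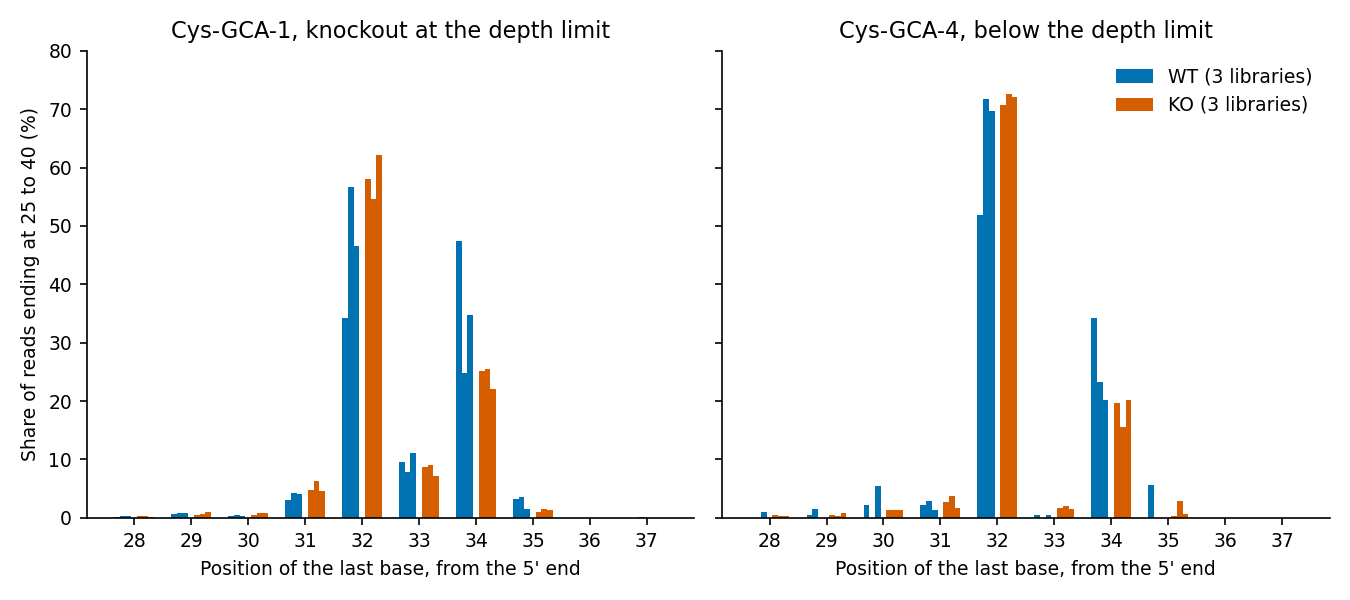
Share in percent of reads ending at each position, among those ending at positions 25 to 40, with one bar per library (blue wild type, orange knockout). Position 32 is the tallest on both copies, except in wild-type replicate 1 of Cys-GCA-1, position 34 comes next, and position 33 stands at 7.2% to 11.2% on Cys-GCA-1 and at 0.0% to 2.0% on Cys-GCA-4. Unlisted positions were taken as 29 reads.

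The mean end position, over the ends between positions 25 and 40 of the 10 distinct G16 copies with listed ends in every library, was 32.62, 32.27 and 32.15 in wild type and 32.2, 32.26 and 32.31 in the knockout. The groups overlapped, with means of 32.35 ± 0.25 (SD, n = 3) and 32.26 ± 0.05 (SD, n = 3). Unlisted positions were taken as 29 reads for these values. The difference, knockout minus wild type, was −0.09 bases (exact two-sided permutation test, p = 0.8, where 3 libraries against 3 cannot go below 0.1). Without wild-type replicate 1 the difference turned to 0.052 bases. It was −0.333 bases with the T16 copies included, −0.247 bases with ends between positions 20 and 45 and −0.385 bases with unlisted positions taken as 0 reads, each at the smallest p of 0.1 in the exact permutation test.

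Site by site, the share of reads covering position 32 that end there was 45.98%, 56.6% and 61.04% on Cys-GCA-7 in wild type and 73.9%, 75.3% and 73.9% in the knockout. This difference of 19.9 percentage points was outside the spread between replicates, with an adjusted p of 0.24 in the quasi-binomial test with limma-moderated dispersion. It was the largest of the 9 G16 copies, which repeat nearly the same reads, and the smallest was 11.98 points on Cys-GCA-9 (adjusted p = 0.36). On Cys-GCA-4 the share was 49.6%, 61.9% and 67.3% against 74.6%, 76.6% and 74.8% (adjusted p = 0.288). On Cys-GCA-1 it was 35.3%, 60.0% and 49.1% against 62.1%, 59.9% and 66.8% (adjusted p = 0.288), where the groups overlapped through wild-type replicate 2. Cys-GCA-3 at position 35, the last base of the anticodon, had 33.5%, 45.2% and 35.2% against 56.6%, 62.8% and 67.8% (adjusted p = 0.288).

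None of the 49 Cys-GCA read-end sites was past the adjusted threshold in this test, 20 had an unadjusted p under 0.05, and over all 906 sites 0% were past the adjusted threshold and 9.71% had an unadjusted p under 0.05. The groups did not overlap at 18 of the 49, against 11.9% of all sites. Position 32 was higher in every knockout library than in every wild-type library on all 9 G16 copies that could be tested, again with shared reads. Without wild-type replicate 2, the test called position 32 on the 3 T16 copies, each with an adjusted p of 0.0307. On these copies the knockout shares were taken over the reads that the depth limit let through.

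The bases in the 5′ reads matched the references closely, and no Cys-GCA position passed the minima for a test of mismatches, deletions or insertions (at least 100 reads in each library and a pooled rate of at least 1%). Over all references 141, 60 and 35 such sites were tested by the quasi-binomial test with limma-moderated dispersion, 0% were called, and 12, 8 and 3 had an unadjusted p under 0.05. Over positions 1 to 34 of Cys-GCA-4, 16 of 222450 base calls were mismatches. On Cys-GCA-1 it was 253 of 1111191.

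The highest mismatch rate in the 5′ part of Cys-GCA-1 was at position 10, a guanosine at the base of the D stem. It stood at 0.428%, 0.074% and 0.225% in wild type and 0.512%, 0.4% and 0.637% in the knockout. The means were 0.242% ± 0.178 (SD, n = 3) and 0.516% ± 0.119 (SD, n = 3), the groups overlapped, and the rate was too low for the site to be tested. On Cys-GCA-4 no mismatch was read at position 10, in 141 to 234 wild-type and 1886 to 2336 knockout reads. A count of 0 in the 2336 reads of knockout replicate 3 allows a rate of up to 0.128%.

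At position 16, the base that separates the copies, no mismatch was read on Cys-GCA-1 or on Cys-GCA-4 in any library, and this is the base by which a read that covers it is placed. Position 25 of this tRNA, canonical position 26 and the target of TRMT1 in other tRNAs, holds an adenosine. On Cys-GCA-1 it had 0, 3 and 1 mismatches in 3041, 2685 and 4432 wild-type reads and 0, 1 and 2 in 7981, 7962 and 7987 knockout reads.

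Past the anticodon no site reached the minima. At position 36 of Cys-GCA-3, the guanosine at canonical position 37, mismatches were 0 of 195, 1 of 113 and 2 of 117 in wild type and 2 of 62, 0 of 71 and 0 of 48 in the knockout. At position 51 of Cys-GCA-3, wild-type replicate 2 alone had mismatches, in 6 of 98 reads (6.12%, Wilson 95% interval 2.84% to 12.7%), with 0 in the 5 other libraries. At position 37 of Cys-GCA-3, deletions were seen in wild-type replicate 3 alone, in 8 reads, with 0 in the 5 other libraries. With the coverage minimum lowered to 50 reads this site could be tested, and its adjusted p was 0.713 (quasi-binomial test with limma-moderated dispersion). At the last base, position 75, insertions were listed in 0 and 10 reads in wild-type replicates 1 and 2 and in 0, 5 and 5 reads in the knockout. None of these was higher in every library of 1 genotype.

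The mitochondrial cysteine tRNA, which has the same anticodon but another sequence, did not share the pattern. Its 5′ part had 85, 121 and 62 reads in wild type and 61, 55 and 57 in the knockout, and its 3′ part 93, 190 and 69 against 83, 62 and 67. The fitted log2 fold changes were −1.1 (SE 0.27) and −1.2 (SE 0.346), both past the adjusted edgeR threshold as lower, as were 10.8% of all 5′ parts and 4.39% of all 3′ parts.

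Other cytosolic tRNAs well known for 5′ fragments (Gly-GCC, Gly-CCC, Glu-CTC, Val-CAC, Val-AAC, Lys-CTT, His-GTG and Asp-GTC) gave 28 5′ parts, of which 10 were at the depth limit. Of the 18 below it, 3 were past the adjusted edgeR threshold as higher, and 1 as lower. Over all 5′ parts 21.7% were higher, which includes the Cys-GCA copies. Among the 92 outside the family and below the limit, 13.04% were higher and 3.26% lower. The median log2 fold change of the 18 listed parts was 0.14, and that of all 5′ parts outside Cys-GCA was 0.09. Of these families Gly-CCC had the highest median, at 0.71 over 4 parts. Likeness was taken from log2 coverage in the 6 libraries, centred on each reference's wild-type mean and not scaled for library size. The 5′ parts most like the median of the G16 copies were Ala-TGC-6 and then Gly-CCC-3 and Gly-CCC-4. Their root mean square differences were 1.22, 1.39 and 1.39 on the log2 scale. Ala-TGC-6 had 118, 118 and 113 reads in wild type and 455, 387 and 316 in the knockout in its 5′ part. Its 3′ part was also higher in every knockout library, at 107, 97 and 111 against 330, 322 and 228 reads. Ala-TGC-2 and Ala-TGC-3, next in likeness after these and Ala-TGC-4 and named after their values were seen, had log2 fold changes of 0.97 in the 5′ part and 0.05 in the 3′ part.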

How the data were processed

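Total RNA of mouse brain was depleted of ribosomal RNA and selected for 30 to 150 bp before sequencing, per the labels' protocols. The deposited tables hold raw counts per position of each tRNA reference (coverage, base calls, reverse-transcription stops, deletions, insertions), per the file headers. The median base quality is a score that the authors deposited, per the file headers. GATK 3.5 is named in the submitters' processing notes with no role; the aligner, reference set and build are not given in the sources used here.

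A stop was moved back by 1 position to give the read start. Ends were the loss of coverage to the next position plus the starts there. For the end shares and the mean end position, unlisted positions were taken as 29 reads. The site tests of ends left out positions whose next position was unlisted in any library. Event shares were tested with a quasi-binomial model (dispersion moderated by limma 3.58.1 and floored at 1, R 4.3.3), at sites with at least 100 reads in each library and a pooled rate of at least 1%, with Benjamini-Hochberg adjustment over all references at 0.05. The highest coverage of each part (positions 1 to 33, and from 40 on) listed in all 6 libraries was fitted with edgeR 4.0.16 (quasi-likelihood, TMM, filterByExpr), and the SE was taken from the F statistic. DESeq2 1.42.0 was an alternative. The functions were tested on simulated data. Wilson 95% intervals and the floor of 3 reads cover counting error only.

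Same-numbered libraries deviated together from their group means over 234 parts (correlations of 0.145, 0.242 and 0.199 for replicates 1, 2 and 3). A fit with the replicate number as a block was therefore run as an alternative, and the main fits used no pairs. Libraries with different numbers were not correlated in this way. Any pairing rests on the data alone and is not established. The named copies were all Cys-GCA references, 1 for each set within 5% in full, up to 10 sites of each kind, mito-Cys-GCA, a list of known 5′ fragments and the 3 most alike references. The members, lists and tests were chosen with earlier results of these data known.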

Additional observations from a re-analysis of the deposited data

How the results depend on the processing

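The Cys-GCA 5′ parts below the depth limit kept a positive median log2 fold change, 2.88 in the fit with TMM, in all 17 alternatives. It was 2.543 with upper-quartile normalization, where the median of all parts moved to −0.313, and 2.698 to 2.962 with 1 library left out. With the replicate block it was 2.901, and 36 parts of all references were called instead of 46. The 3′ parts ranged from −0.191 to 0.303 with 1 library left out. The 3 read-start calls, all at the depth limit, became 0 at a pooled rate of at least 5%, 0 without the references at the limit, and 0 to 3 with 1 library left out; in each setting with 0 these sites fell under a filter and were not tested, so the change says nothing about stability. Read ends gave 0 calls, also with limma on the arcsine square root, and 0 to 3 with 1 library left out. With the replicate block, starts stayed at 3 calls and ends at 0, and the block changed no call in the site tests it was run for. The difference in mean end position, −0.087 bases, was −0.333 with all copies, −0.247 with ends between positions 20 and 45, −0.385 with unlisted positions as 0 reads (chosen after seeing the data) and −0.187 to 0.052 with 1 library left out; without wild-type replicate 1 it turned to 0.052. The cause of these shifts was not tested. No mismatch or insertion site of this family reached the minima in any setting, and only 1 deletion site did, at a coverage minimum of 50 (adjusted p 0.713, quasi-binomial test with limma-moderated dispersion). Depth limits the T16 copies from above and the 3′ parts from below, where under 30 reads are not listed.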
